A study of Mus musculus with 18 samples.

Results

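The DNA methylation and demethylation enzymes are described here across B cell tumours of Eμ-Myc mice. They are 7 genes, Dnmt1, Dnmt3a, Dnmt3b, Uhrf1, Tet1, Tet2 and Tet3, chosen by name from 19938 genes measured by array, and all 7 were measured. Where several probe sets carried a gene's symbol alone, the brightest by mean over 18 arrays was read. There were 3 such sets for Tet1, 2 for Tet3 and 1 for each of the other genes.

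Total RNA came from whole, frozen, end-stage splenic tumours, 1 Affymetrix array per tumour and 1 mouse per tumour. The groups were Prdm11 KO (9 tumours) and Prdm11 WT (9 tumours). Both carried Eμ-Myc, a transgene that places Myc under the heavy chain enhancer and so expresses it in B cells, and the strain background is given as C57BL/6. The labels give neither the design of the KO allele nor the age or sex of the mice. No sorting is stated, so a tumour can hold other spleen cells, and fewer cells of a type cannot be told apart from less RNA per cell.

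Methylation of cytosine in CpG pairs is a heritable mark of silenced chromatin. Dnmt1 copies it onto the new strand behind the replication fork, and Uhrf1 binds the half-methylated DNA and brings Dnmt1 to it, so both are used most in cells that replicate DNA. Dnmt3a and Dnmt3b set the mark at sites that lacked it, and the Tet enzymes oxidise methylcytosine as the first step of its removal. In the B lineage these enzymes take part in the passage from dividing precursors to mature cells, and DNMT3A and TET2 are among the genes most often mutated in human blood cancers.

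Levels are log2 RMA intensities, and a difference in them is KO minus WT. A gene counted as called when the p-value of limma, adjusted over all genes tested by the Benjamini-Hochberg method, was below 0.05. The array medians ran from 5.14 to 5.38 on this scale. The mean level of Uhrf1 lay at percentile 90.9 among all genes, that of Dnmt1 at 89.0, Tet3 at 75.8 and Dnmt3a at 74.6. Dnmt3b (54.8), Tet2 (52.6) and Tet1 (51.1) lay near the middle, where a probe set is dim. The array least like the others was that of WT tumour 3, whose correlations to them had a median of 0.924, compared with 0.957 to 0.975 for the other 17. The probe set of Prdm11 ran from 4.87 to 5.49 in KO tumours and from 4.84 to 5.66 in WT tumours, with means of 5.21 ± 0.23 in KO and 5.33 ± 0.26 in WT tumours (SD, n = 9 each). Its place relative to the deleted part is unknown here, and these values do not check the genotype labels. The 13 measured pan-B genes, which include Cd79a, Pax5 and Ebf1, had mean levels between percentiles 52.2 and 96.7 among all genes.

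Of the 12 RefSeq promoter windows of these genes (GRCm38.p6, all 7 genes matched), 2 held an E2F motif in the 250 bases before the start, 1 of Dnmt1 and 1 of Uhrf1. E2F factors drive genes of the S phase. The motif was searched on both strands as TTTCCCGC, TTTGGCGC, TTTGCCGC and TTTCGCGC, and 1.86% of 32851 promoter windows held at least 1 of them. The share was 23.1% over 26 windows of the replication genes and 4.76% over 21 windows of the mitosis genes, both scored further on. Matches to these versions can overlap one another, and each window was counted once. The 30 bases around each match are shown because these 2 genes had the highest correlation over the tumours among pairs of the 7 members, as described further on. The capitals mark the match, which is TTTCGCGC in both, read on the opposite strand in Dnmt1 and on the gene's strand in Uhrf1. The sites lie at chr9:20952824-20952853 (minus strand) and chr17:56304117-56304146 (plus strand). The match ended 212 bases before the start that its window precedes in Dnmt1 and 178 bases before that start in Uhrf1.
Dnmt1: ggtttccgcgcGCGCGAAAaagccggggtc
Uhrf1: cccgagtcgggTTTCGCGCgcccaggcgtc
The version TTTCGCGC alone was in 0.256% of all windows. The window with the match held 26 CpG pairs in Dnmt1 and 30 in Uhrf1. The median was 6 over all windows and 19 over the members' windows, and the shares were not matched for CpG content. Both genes have other windows without a match. Those windows belong to other starts farther upstream, so each match lies downstream of those starts. The match describes letters, not binding. The Myc-type E-box CACGTG was in 1 window of Dnmt3a and in none of the other members' windows, against 6.02% of all windows.

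None of the 7 genes was called between genotypes, and all 7 had a higher mean in KO tumours. For Dnmt3b, Tet2 and Tet3 the difference was smaller than its SE. The 7 directions are not separate results, since some members moved together, such as Dnmt1 and Uhrf1 at r 0.90. Over all genes 1 of 19938 was called, which is 0.00502%. It was Cd59a, a complement regulator named here after its values were seen, at 5.19 ± 0.69 in KO and 7.22 ± 0.67 in WT tumours, a log2 difference of -2.03 (SE 0.29, adjusted p = 0.0167), and with 1 tumour left out the count of called genes was 0 or 1. At an unadjusted p below 0.05, 564 genes were higher and 772 lower in KO tumours, 6.7% of those tested. The median difference of the 7 genes was 0.24, against -0.03 over all genes.

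Dnmt1 had a lowest, median and highest level of 7.32, 7.76 and 8.55 in KO tumours, against 6.94, 7.52 and 8.70 in WT tumours. The groups overlapped over most of their range. WT tumour 1 was the highest of all 18, and WT tumours 5, 4 and 9 were below every KO tumour. The mean was 7.93 ± 0.46 in KO tumours and 7.58 ± 0.62 in WT tumours (SD, n = 9 each), and KO minus WT was 0.34 (SE 0.24, limma adjusted p = 0.810).

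Uhrf1 ranged from 7.38 to 9.04 with a median of 8.13 in KO tumours, and from 7.23 to 9.14 with a median of 7.59 in WT tumours. WT tumour 1 was highest and KO tumour 3 next, as for Dnmt1. For Uhrf1 8 of 9 KO tumours were above the WT median, and for Dnmt1 7 of 9. Its mean was 8.24 ± 0.52 in KO and 7.89 ± 0.59 in WT tumours, and KO minus WT was 0.35 (SE 0.24, limma adjusted p = 0.810). The erythroid score averaged 7.35 ± 0.48 in KO and 7.91 ± 0.66 in WT tumours (SD, n = 9 each). With that score as a covariate the difference was 0.70 for Uhrf1 (SE 0.21) and 0.69 for Dnmt1 (SE 0.21), with a limma adjusted p of 0.199 for both.

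For Dnmt3a, the gene with the smallest unadjusted p of the 7, the lowest, median and highest levels were 5.81, 6.60 and 7.44 in KO tumours and 5.88, 6.25 and 6.79 in WT tumours. KO tumours 2 and 1 were above every WT tumour, and KO tumour 5 was below all of them. The mean was 6.64 ± 0.44 in KO and 6.26 ± 0.27 in WT tumours. That is 1.30-fold higher in KO tumours, a log2 difference of 0.37 (SE 0.16, limma adjusted p = 0.718).

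Dnmt3b, the other de novo enzyme, had the narrowest span of the 7, 1.76-fold over the 18 tumours. Its levels were 5.34 to 6.15 with a median of 5.52 in KO tumours, and 5.33 to 5.61 with a median of 5.56 in WT tumours. The value of 6.15 was that of KO tumour 8, and the next KO tumour was at 5.67. The means were 5.59 ± 0.24 in KO and 5.51 ± 0.10 in WT tumours, which differ by 0.08 (SE 0.09, limma adjusted p = 0.885), and without KO tumour 8 it was 0.01.

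Among the demethylases, Tet1 had levels of 4.95 to 6.22 (median 5.47) in KO tumours and 4.88 to 5.68 (median 5.35) in WT tumours. KO tumours 2, 6, 4 and 1 were above every WT tumour, while KO tumour 3 was second lowest of the 18. Its means were 5.55 ± 0.43 in KO and 5.31 ± 0.27 in WT tumours, 0.24 apart (SE 0.16, limma adjusted p = 0.809), and 0.15 apart without KO tumour 2. The 2 other Tet1 probe sets were dimmer, with KO minus WT differences of 0.16 and -0.02 and correlations of 0.80 and 0.35 with the one used. The mean over the 3 probe sets gave a difference of 0.13.

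Tet2 lay between 5.18 and 6.22 (median 5.54) in KO tumours and between 5.001 and 6.16 (median 5.34) in WT tumours. Each genotype had 1 tumour far above the rest, KO tumour 6 at 6.22 and WT tumour 8 at 6.16, and the third highest of the 18 was at 5.67. The difference of means was 0.11 (SE 0.14, limma adjusted p = 0.905), from 5.53 ± 0.30 in KO and 5.42 ± 0.34 in WT tumours. It was 0.02 without KO tumour 6, 0.06 without WT tumour 3, 0.20 without WT tumour 8 and 0.05 with the erythroid covariate.

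Tet3 reached 5.96 to 7.13 (median 6.58) in KO tumours and 6.16 to 6.90 (median 6.42) in WT tumours. The KO group spread past the WT group on both sides, with KO tumours 3, 4 and 6 above every WT tumour and KO tumour 7 below all of them. Means of 6.59 ± 0.40 in KO and 6.48 ± 0.29 in WT tumours differed by 0.11 (SE 0.16, limma adjusted p = 0.912). With 1 tumour left out the difference lay between 0.04 (without KO tumour 3) and 0.19 (without KO tumour 7). It was 0.07 without KO tumour 4, without KO tumour 6 or without WT tumour 9. With the T cell, macrophage and neutrophil covariates it was 0.02. The other Tet3 probe set was dimmer, with a KO minus WT difference of 0.11 and a correlation of 0.40 with the one used.

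**Figure D1:**
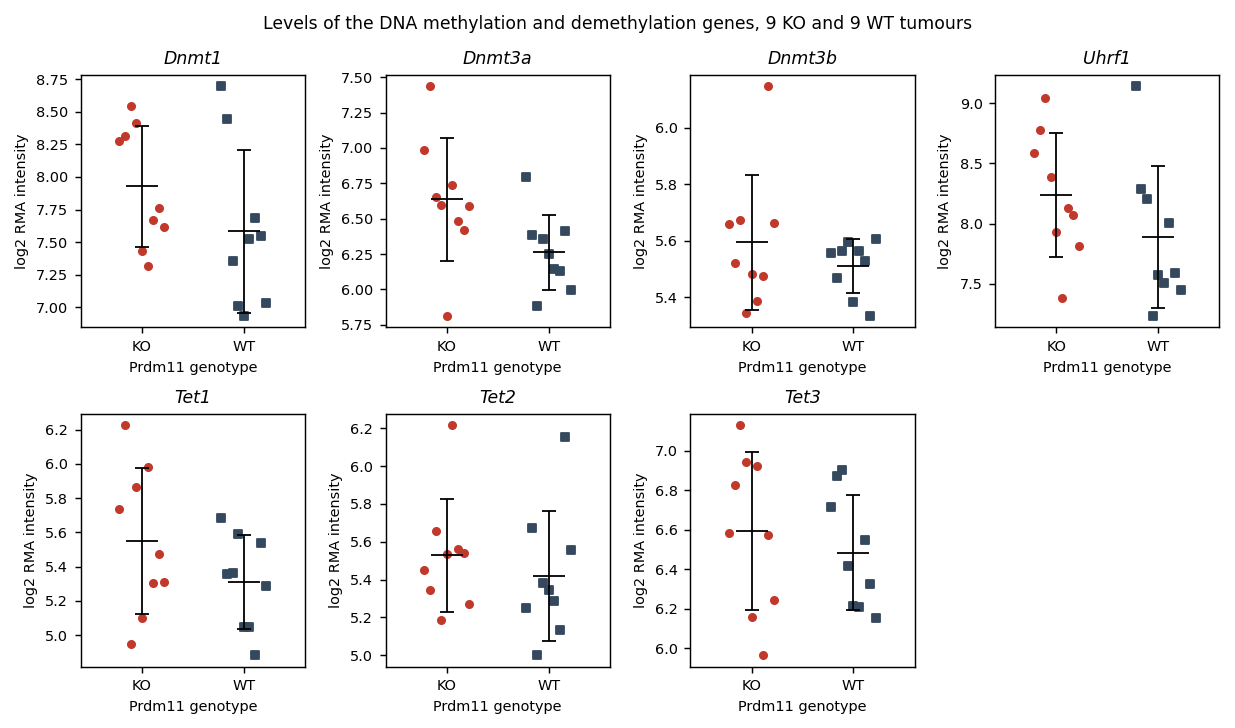
Log2 RMA intensity (y axis) of each of the 7 genes in 9 KO (red circles, left) and 9 WT (dark squares, right) tumours. Bars give the mean and SD; the genotypes overlap in every panel, KO tumour 8 stands alone for Dnmt3b at 6.15, and KO tumour 6 and WT tumour 8 stand above the rest for Tet2 at 6.22 and 6.16.

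Over the 18 tumours the levels of Dnmt1 and Uhrf1 followed each other closely. Their Pearson r was 0.90 and their Spearman rho 0.88 (both with a permutation p of 1e-05, the smallest that 100000 permutations can give, and 0.00021 after adjustment over the 21 pairs of members). Within genotypes r was 0.93 over the KO and 0.86 over the WT tumours, and it was 0.84 without the 2 tumours farthest from the median Uhrf1 level, KO tumour 3 and WT tumour 1. From the lowest to the highest tumour, Dnmt1 spanned 3.39-fold and Uhrf1 3.76-fold.

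Dnmt3a was related to both Dnmt1 and Tet1 by Pearson's measure. With Dnmt1 r was 0.61 (permutation p = 0.00673, adjusted p = 0.0471) and rho 0.60 (p = 0.00911, adjusted p = 0.0638). With Tet1 r was 0.72 (permutation p = 0.00077, adjusted p = 0.00808) and rho 0.64 (p = 0.00524, adjusted p = 0.0550), and without KO tumours 2 and 6 this r was 0.53. Tet3 with Dnmt1 had r 0.60 (permutation p = 0.0102, adjusted p = 0.0535). Dnmt3b and Tet2 were in none of the pairs below an adjusted p of 0.05, and 3 of 21 pairs were below it by r and 1 by rho.

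Likeness to other genes was taken as Pearson r over the 18 tumours among 9968 other genes with a mean level above the median gene. The genes most like Dnmt1 were Smc3, a cohesin subunit, at 0.97, Nono, an RNA- and DNA-binding nuclear protein, at 0.96, and Wbp11, a splicing factor, at 0.96. All 3 were closer to Dnmt1 than Uhrf1 was, at 0.90, so the closeness of Dnmt1 and Uhrf1 is not particular to that pair. Uhrf1 was closest to Chaf1a, a subunit of the chromatin assembly factor that loads histones behind the fork, at 0.93, then to Ubtf, a factor of ribosomal RNA transcription, and Actn4, an actin crosslinker, both at 0.92. For Dnmt3a they were the tyrosine kinase gene Abl1 (0.91), Epb41l2 (0.85) and Ano6 (0.84). Dnmt3b was closest to the clone 9530077C05Rik (0.81), Cnih2 (0.77) and Iqca (0.75), and Tet1 to Cdk17 (0.78), Ablim1 (0.77) and Dcaf5 (0.76). Those of Tet2 were the cyclic AMP phosphodiesterase gene Pde7a (0.91), Uvrag (0.88) and Anxa6 (0.84). Tet3 had Rrbp1 (0.90), Traf3ip1 (0.89) and Supt5 (0.86), which encodes a transcription elongation factor. These are the highest of many correlations and describe these tumours.

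Dnmt1 and Uhrf1 were the 2 members that rose with the mitosis score, the mean log2 level per tumour of 22 measured genes such as Cdk1, Plk1 and Mki67. In limma with genotype in the model, Dnmt1 rose by 1.03 on the log2 scale per log2 unit of the score (SE 0.20, adjusted p = 0.00461) and Uhrf1 by 0.97 (SE 0.22, adjusted p = 0.0145). These slopes lay at percentiles 99.5 and 99.3 among 19916 genes outside the list. Of those genes 3.75% were called in either direction, 3.13% upward. The mitosis score ran from 7.34 to 8.66 in KO tumours and from 7.83 to 9.00 in WT tumours, with KO tumour 6 lowest and WT tumour 1 highest. In WT tumours 4 and 5, with mitosis scores of 7.97 and 7.95, Dnmt1 was at 7.01 and 6.94 and Uhrf1 at 7.23 and 7.57. WT tumour 1, with 9.00, had 8.70 for Dnmt1 and 9.14 for Uhrf1. Other tumours lay off this order. KO tumour 6, with the lowest score of 7.34, had Dnmt1 at 7.32, above WT tumours 4 and 5, and WT tumour 3, with 7.83, had Uhrf1 at 8.20. Dnmt1 had r 0.75 with this score (permutation p = 0.00038, adjusted p = 0.0213 over 56 relations of 7 genes and 8 scores) and rho 0.75 (p = 0.00057, adjusted p = 0.0112). Uhrf1 had r 0.69 (permutation p = 0.00162, adjusted p = 0.0245) and rho 0.67 (p = 0.00311, adjusted p = 0.0290). Without KO tumour 6 and WT tumour 1, r was 0.75 for Dnmt1 and 0.57 for Uhrf1. Within genotypes r was 0.66 over KO and 0.91 over WT tumours for Dnmt1, and 0.81 over KO and 0.66 over WT tumours for Uhrf1, and a difference in slope between genotypes was called for neither (limma adjusted p = 0.699 for Dnmt1 and 0.9995 for Uhrf1, with 0 of 19916 genes called and 7.77% at an unadjusted p below 0.05).

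The mitosis score moved with marker scores of other cell types and with the B stage score. Its r was 0.76 with the erythroid score (11 markers such as Klf1 and Alas2), -0.58 with the T cell score (14 markers) and 0.54 with the B stage score described next. The erythroid score ran from 6.43 to 7.99 in KO tumours and from 7.30 to 9.26 in WT tumours, and the T cell score from 5.11 to 7.33 in KO and from 5.23 to 7.16 in WT tumours. With the erythroid score as a covariate the slope of Dnmt1 was 1.11 (SE 0.38, limma adjusted p = 0.273) and that of Uhrf1 0.84 (SE 0.42, adjusted p = 0.513). With the T cell, macrophage and neutrophil scores they were 0.68 (SE 0.24, adjusted p = 0.235) and 0.53 (SE 0.30, adjusted p = 0.436). With the B stage score they were 0.80 (SE 0.22, adjusted p = 0.0660) and 0.69 (SE 0.24, adjusted p = 0.145). With each of these 3 sets of covariates both slopes were positive and neither was called. Without WT tumour 1, which had the highest erythroid score, the slope of Uhrf1 was 0.77 (limma adjusted p = 0.101) and that of Dnmt1 0.89 (adjusted p = 0.0378).

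**Figure D2:**
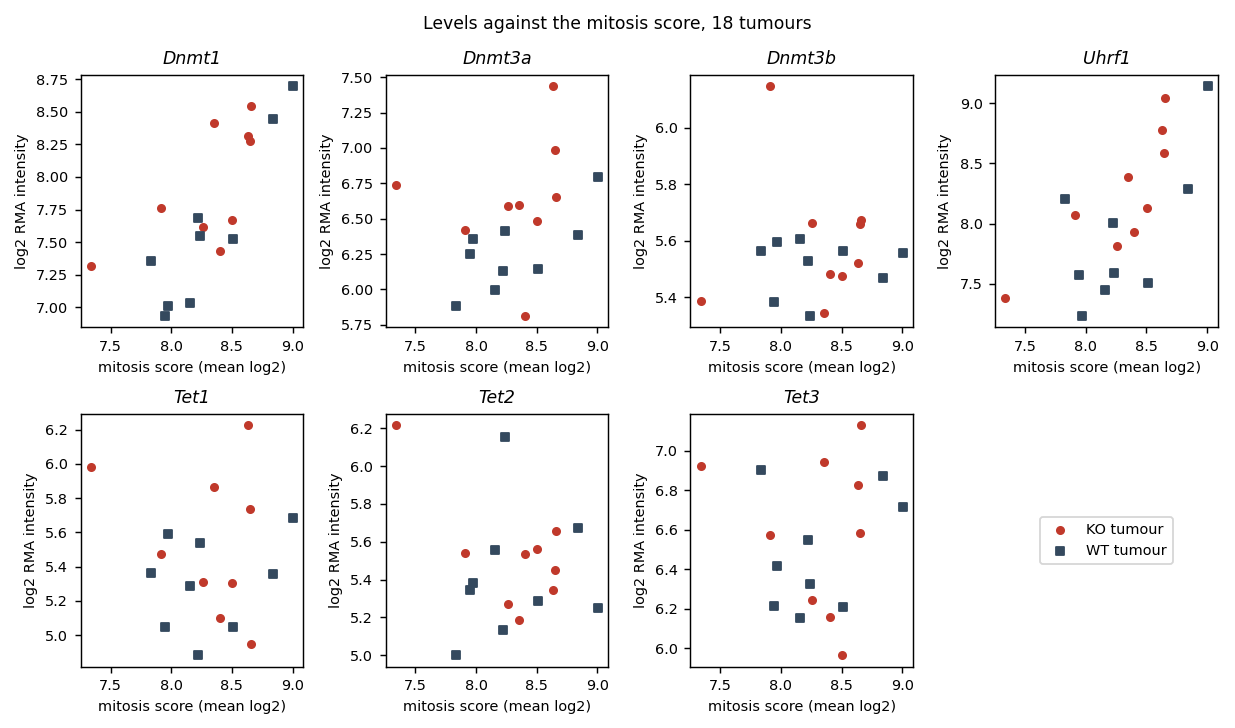
Log2 RMA intensity of each gene (y axis) against the mitosis score (x axis, mean log2 level of 22 genes) in 9 KO (red circles) and 9 WT (dark squares) tumours. Dnmt1 and Uhrf1 rose with the score, with r 0.75 and 0.69, and the other 5 genes have slopes that were not called.

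The other 5 genes were not called against the mitosis score. Dnmt3a had a slope of 0.31 (SE 0.20, limma adjusted p = 0.492), Tet3 0.04 (SE 0.20), Dnmt3b -0.01 (SE 0.12), Tet1 -0.05 (SE 0.21) and Tet2 -0.19 (SE 0.18). Without KO tumour 6 the slope of Dnmt3a was 0.56 (limma adjusted p = 0.165). The sign of each of these 5 slopes turned in at least 1 other setting. The mean over probe sets gave a slope of 0.10 for Tet3 and -0.12 for Tet1. The Tet3 probe set not used had r 0.40 with the mitosis score, against 0.04 for the one used.

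Against the replication score, the mean level of 28 genes of the G1/S passage and the fork such as Mcm2 and Pcna, none of the 7 genes was called. Over all genes 1.61% were called, 1.18% upward and 0.432% downward, and this count rests on 1 tumour. KO tumour 6 had the lowest replication score, 7.22, against 7.67 to 8.39 in the others, and without it 0 of 19910 genes were called instead of 320. The slopes of Dnmt1 and Uhrf1 were 0.97 (SE 0.40, limma adjusted p = 0.266) and 0.99 (SE 0.40, adjusted p = 0.265). They were 0.18 for both genes with the erythroid covariate, 0.33 and 0.15 with the T cell, macrophage and neutrophil covariates, and 0.34 and 0.33 with the B stage covariate. That of Uhrf1 was 0.62 without WT tumour 1. Their r with this score was 0.48 each (permutation p = 0.0396 for Dnmt1 and 0.0406 for Uhrf1, adjusted p = 0.157 for both), and rho was 0.58 (p = 0.0134, adjusted p = 0.107) and 0.49 (p = 0.0426, adjusted p = 0.260). Without KO tumour 6 and WT tumour 3 r was 0.47 and 0.48. The other slopes were 0.35 (SE 0.30) for Dnmt3a, 0.19 (SE 0.17) for Dnmt3b, -0.10 (SE 0.31) for Tet1, -0.32 (SE 0.27) for Tet2 and -0.39 (SE 0.29) for Tet3. The slope of Dnmt3a was 0.92 without KO tumour 6 (limma adjusted p = 0.217), 0.17 without KO tumour 2 and 0.18 without WT tumour 1. That of Dnmt3b was 0.09 without KO tumour 6, and those of Tet1 and Tet2 turned positive without it, at 0.44 and 0.34. The mean over probe sets gave a slope of -0.27 for Tet1 and -0.15 for Tet3. The 2 Tet1 probe sets not used had r -0.50 and -0.14 with the replication score, against -0.06 for the one used. The Tet3 probe set not used had r 0.17, against -0.30. A difference in slope between genotypes was called for 0 of the 7 genes, against 0.588% of all genes; KO minus WT was -1.73 for Dnmt1 (SE 0.78, limma adjusted p = 0.311) and -1.14 for Tet2 (SE 0.53, adjusted p = 0.335). The replication score of KO tumours was 7.99 ± 0.33 and that of WT tumours 7.98 ± 0.22 (SD, n = 9 each).

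For B cell stage, the score was the mean log2 level of 16 pro-B and pre-B genes (such as Igll1, Rag1 and Il7r) minus that of 14 mature B genes (such as Ms4a1, Cr2 and Ccr7), so that a higher score is an earlier pattern. It ran from -1.89 to 1.77 in KO tumours (median 0.28) and from -1.23 to 1.85 in WT tumours (median -0.52). No member was called in limma over all genes, of which 0.548% were, 0.171% upward and 0.377% downward. Dnmt1 and Uhrf1 had the steepest slopes of the 7, 0.33 (SE 0.09, adjusted p = 0.117) and 0.34 (SE 0.09, adjusted p = 0.108) per log2 unit, at percentile 99.7 of all genes for each. Dnmt1 had r 0.69 with the score (permutation p = 0.00175, adjusted p = 0.0245 over the 56 relations) and rho 0.74 (p = 0.0006, adjusted p = 0.0112). Uhrf1 had r 0.69 (permutation p = 0.00134, adjusted p = 0.0245) and rho 0.72 (p = 0.00122, adjusted p = 0.0137). Without KO tumour 1 and WT tumour 1 these r were 0.57 and 0.56. The slopes of both genes were past the threshold without KO tumour 3 (adjusted p = 0.0430 and 0.0224) and with array weights (adjusted p = 0.0466 and 0.0371). That of Dnmt1 also passed it without WT tumour 2 (adjusted p = 0.0485). Other settings lowered both slopes. Leaving out WT tumour 1 gave 0.26 for Dnmt1 (limma adjusted p = 0.428) and 0.25 for Uhrf1 (adjusted p = 0.455). Adjusting for the erythroid score left Dnmt1 at 0.24 (adjusted p = 0.327) and Uhrf1 at 0.25 (adjusted p = 0.304). Fitting the replicate numbers as a block put Dnmt1 at 0.24 (adjusted p = 0.489) and Uhrf1 at 0.26 (adjusted p = 0.354).

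The T cell score moved with the stage score too, at r -0.72. Dnmt1 had r -0.61 with the T cell score (permutation p = 0.00693, adjusted p = 0.0647) and rho -0.78 (p = 0.00017, adjusted p = 0.00952). Uhrf1 had r -0.66 (permutation p = 0.00292, adjusted p = 0.0327) and rho -0.73 (p = 0.00094, adjusted p = 0.0132), and without KO tumour 6 and WT tumour 8 these r were -0.68 and -0.61. With the T cell, macrophage and neutrophil scores as covariates the stage slope of Dnmt1 was 0.20 (SE 0.10, limma adjusted p = 0.984) and that of Uhrf1 0.17 (SE 0.12, adjusted p = 0.99995).

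Tet2 had the opposite sign, without being called. Its stage slope was -0.17 (SE 0.06, limma adjusted p = 0.285), the 1 negative slope of the 7, at percentile 5.33 of all genes, and it was -0.08 with the T cell, macrophage and neutrophil covariates. Its r with the score was -0.50 (permutation p = 0.0325, adjusted p = 0.157) and rho -0.43 (p = 0.0747, adjusted p = 0.281), with an r of -0.79 over KO and -0.36 over WT tumours. Without KO tumour 6, r over the other tumours was -0.35 and the stage slope -0.12. KO tumour 6 and WT tumour 8, the tumours with the highest Tet2, had the highest T cell scores, 7.33 and 7.16, and stage scores of -1.89 and -1.13. Tet2 with the T cell score gave r 0.59 (permutation p = 0.0124, adjusted p = 0.0869) and rho 0.31 (p = 0.214, adjusted p = 0.472), and without these 2 tumours r was -0.0036, so that the relation rests on them. WT tumours 4 and 5, with T cell scores of 7.003 and 6.72, had Tet2 at 5.38 and 5.34.

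Dnmt3a had a stage slope of 0.14 (SE 0.07, limma adjusted p = 0.593), Tet1 0.09 (SE 0.08), Tet3 0.07 (SE 0.08) and Dnmt3b 0.05 (SE 0.05). Without KO tumour 6 the slope of Tet1 was 0.20 and that of Tet3 0.16, and without KO tumour 8 that of Dnmt3b was 0.02. KO tumours 1 and 2, the highest in Dnmt3a at 6.99 and 7.44, had stage scores of 1.77 and 0.90, but KO tumour 4, with 1.72, had 6.60. Tet3 had its strongest relation with the neutrophil score, r -0.56 (permutation p = 0.0161, adjusted p = 0.1004) and rho -0.55 (p = 0.0190, adjusted p = 0.133). Differences in stage slope between genotypes were called for 0 of the 7 genes and 0 of 19908 genes in limma, of which 5.47% had an unadjusted p below 0.05.

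**Figure D3:**
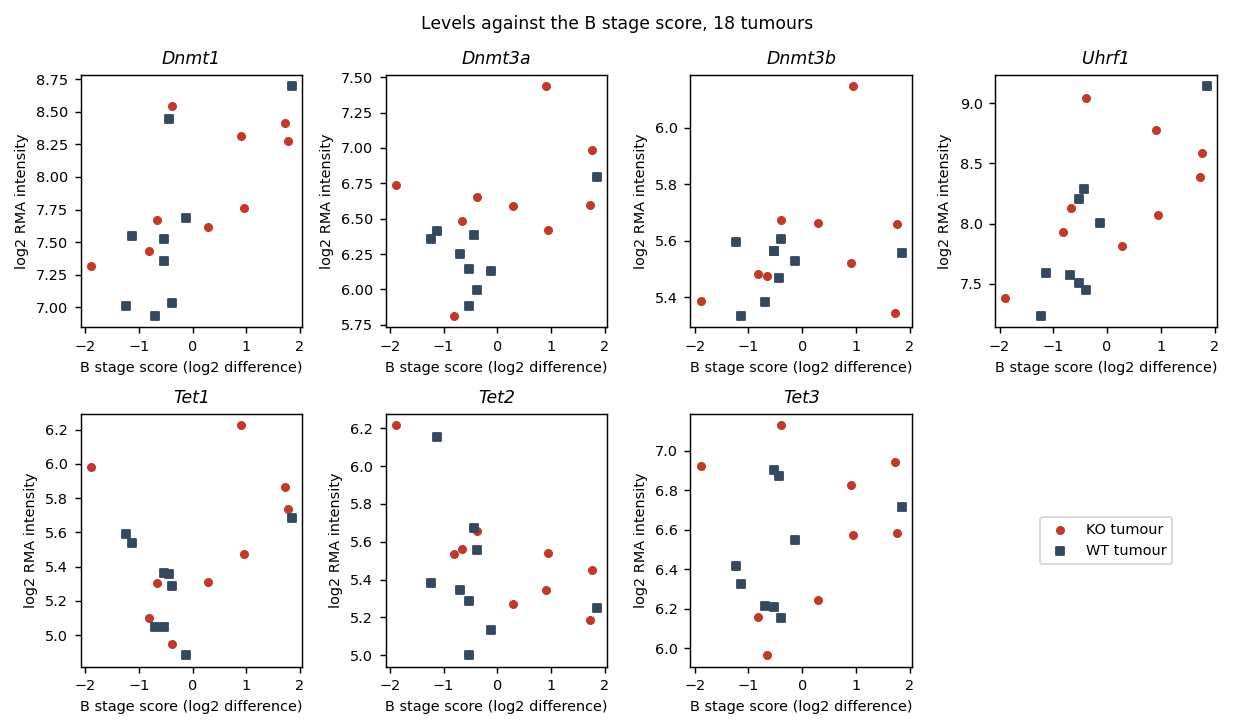
Log2 RMA intensity of each gene (y axis) against the B stage score (x axis, log2 difference of the early and mature lists, higher for an earlier pattern) in 9 KO (red circles) and 9 WT (dark squares) tumours. Dnmt1 and Uhrf1 are higher at high scores, with r 0.69 each, and Tet2 is lower, with r -0.50. The slope of none of the 7 genes was called in limma.

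**Figure D4:**
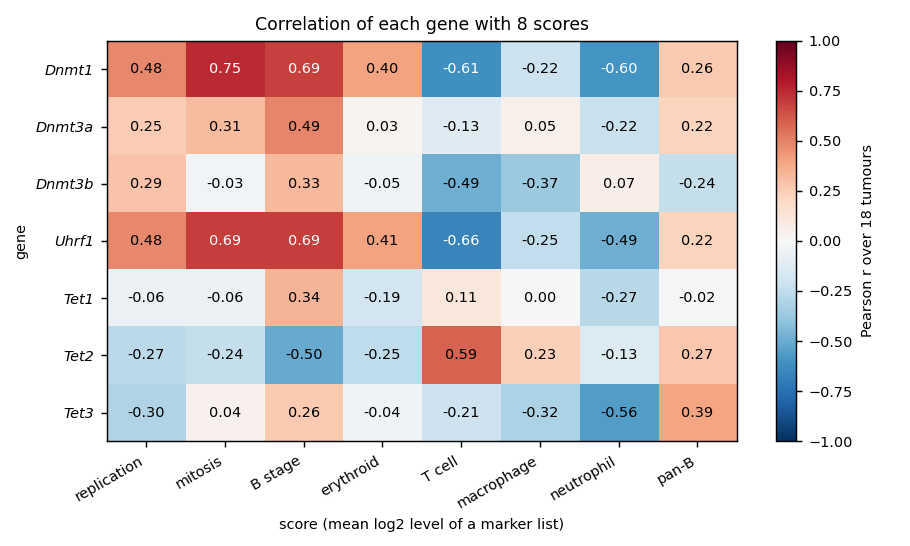
Pearson r over 18 tumours of each gene (rows) with 8 scores (columns), red for positive and blue for negative. Dnmt1 and Uhrf1 share a row pattern, with 0.75 and 0.69 for mitosis and -0.61 and -0.66 for T cells, and Tet2 has 0.59 for T cells.

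**Figure D5:**
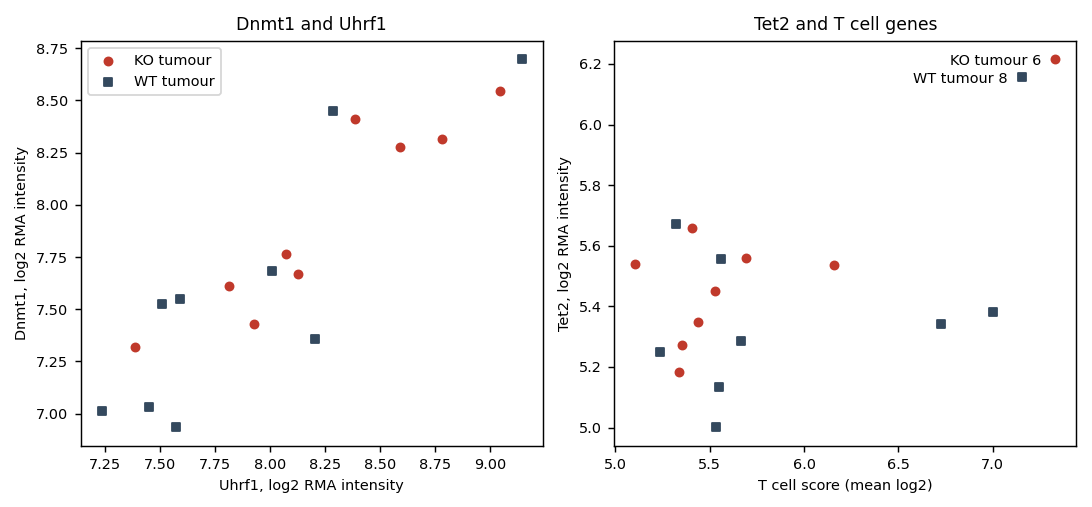
Left, Dnmt1 against Uhrf1 (both log2 RMA intensity), and right, Tet2 (log2 RMA intensity) against the T cell score, in 9 KO (red circles) and 9 WT (dark squares) tumours. Dnmt1 and Uhrf1 follow each other at r 0.90, and the Tet2 relation rests on KO tumour 6 and WT tumour 8.

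A list of 34 partner genes was set beside the enzymes. It holds readers of methylated DNA, cofactors of the methyltransferases, repair enzymes and makers of cofactors, and 29 were measured under a single symbol. In the genotype comparison 0 of 29 were called, with a median difference of 0.07, and 5 had an unadjusted p below 0.05, against 6.7% of all genes. Gadd45a, a stress gene linked to demethylation by repair, had the smallest p. It averaged 8.17 ± 0.19 in KO and 8.66 ± 0.45 in WT tumours (SD, n = 9 each), with KO minus WT at -0.49 (SE 0.15, limma adjusted p = 0.667), and had r 0.84 with the erythroid score, which averaged 7.35 in KO and 7.91 in WT tumours. Mbd1, a methyl-CpG binding protein, averaged 5.81 ± 0.08 in KO and 5.64 ± 0.15 in WT tumours, 0.17 apart (SE 0.07, limma adjusted p = 0.718).

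With the mitosis score 2 of 29 partner genes rose and 0 fell, against 3.13% of all genes called upward and 0.618% downward, and the median slope was 0.13, against -0.05 over all genes. They were Ctcf, the insulator protein whose binding is blocked by methylation at some sites, at 0.87 (SE 0.14, limma adjusted p = 0.000763), and Trim28, the corepressor that protects imprinted methylation with Zfp57, at 0.53 (SE 0.12, adjusted p = 0.0164). With the erythroid covariate 0 of 29 were called, and 31 of 19916 genes. Without KO tumour 6 it was 6 partners and 1659 genes, and without WT tumour 1 it was 1 partner and 317 genes.

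With the replication score 3 of 29 partners rose and 0 fell, against 1.18% of all genes called upward and 0.432% downward, with a median slope of 0.13, against -0.09 over all genes. Hells, the chromatin remodeller needed for normal DNA methylation, had a slope of 1.13 (SE 0.25, limma adjusted p = 0.0292). Idh2, the mitochondrial enzyme that makes the Tet cofactor 2-oxoglutarate, had 0.95 (SE 0.17, adjusted p = 0.00775), and Idh3a, a subunit of the NAD-linked isocitrate dehydrogenase, had 1.13 (SE 0.26, adjusted p = 0.0366). Without KO tumour 6, 0 of 29 partners and 0 of 19910 genes were called. Without WT tumour 5 it was 1 partner and 193 genes. Against the B stage score 0 of 29 were called in limma and 7 had an unadjusted p below 0.05, against 9.37% of all genes, with a median slope of 0.02, against 0.005 over all genes. The 2 with the smallest p were Apex1, a base excision repair endonuclease, with a slope of 0.19 (SE 0.05, limma adjusted p = 0.153), and Hells with 0.23 (SE 0.08, adjusted p = 0.236).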

How the data were processed

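The deposited table holds 1 intensity per probe set and array, which had been through RMA according to the tools named per the submitters' processing notes. Its RMA version and any genome build are not stated there. Intensities ran from 1.63 to 14996 and were taken to be linear and transformed to log2 with no pseudocount. No 2 arrays were identical (0 of 153 pairs), and each tumour counted as 1 replicate; the number of arrays limits the precision. Of 35556 probe sets, 21789 had 1 symbol in the platform annotation, 1621 several and 12146 none, which gave 19938 genes.

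Genes were fitted with limma 3.58.1 in R 4.3.3 (lmFit, eBayes), on genotype, or on genotype and 1 score, leaving the score's own genes out. The fits were tested on simulated data. Correlations used numpy 2.4.6, with 100000 two-sided permutations. Members of a list had to carry a single symbol. Genes named were the 7 members, the 3 most alike genes of each, and up to 4 called partners per comparison or otherwise the 2 of smallest p. The members and lists were chosen with earlier results of these data known. Replicate numbers were not taken as pairs. The deviations of same-numbered tumours from their group means had correlations from -0.23 to 0.49, above 0.1 in 4 of 9 pairs. Of the 9 KO tumours, 1 was most like the WT tumour of its own number. The labels name no batch, and none was fitted. Alternatives covered probe sets, scaling, dim genes, variance model, array weights, covariates, the replicate block and left-out tumours.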

Additional observations from a re-analysis of the deposited data

Results flagged for a closer look

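In 28 checks of the highest and lowest tumour of a genotype (7 genes, 2 groups), 2 values stood apart from the other 8, and chance gives about 1 in 20 groups. Dnmt3b in KO tumour 8 was at 6.15, with the next KO tumour at 5.67. Tet2 in KO tumour 6 was at 6.22, with the next KO tumour at 5.66, and this tumour also had the highest T cell score, 7.33, and the lowest mitosis, replication and erythroid scores of the 18, at 7.34, 7.22 and 6.43.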

How the results depend on the processing

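All 210 refits of the genotype differences of the 7 genes kept their direction and stayed short of the threshold, with Dnmt3a between 0.27 and 0.49 and Dnmt1 between 0.26 and 0.69. The count of genes called between genotypes (1) was 2 after quantile normalization, 0 with the replicate block, 0 without WT tumour 3 and KO tumour 4 (chosen after seeing the data) and 0 to 1 with 1 tumour left out. For the relation to replication score (320 genes) it was 501 with the B stage covariate, 529 with array weights, 1278 with the erythroid covariate, 662 after median centring, 527 after quantile normalization (1 member called, Uhrf1), 0 with the replicate block, 0 without KO tumour 6 and WT tumour 3 (chosen after seeing the data) and 0 to 388 with 1 tumour left out. For the relation to mitosis score (746) the counts were 467 with the B stage covariate, 63 with T cell, macrophage and neutrophil covariates, 31 with the erythroid covariate and 11 with the replicate block, and 0 members were called in these 4. They were 2023 with array weights, 1348 after quantile normalization, 1719 without KO tumour 6 and WT tumour 3, and 317 to 1659 with 1 tumour left out (1 to 2 members). For the relation to B stage score (109) they were 37 with T cell, macrophage and neutrophil covariates, 56 with the erythroid covariate, 206 with array weights (2 members), 299 with the mature B list alone, 52 with the pro-B and pre-B list alone, 67 with the median over the list, 9 with the replicate block, 69 without KO tumour 6 and WT tumour 3, and 32 to 172 with 1 tumour left out (0 to 2 members). With the numbers as a block, a pairing the labels do not give, the slopes of Dnmt3a were -0.16 (replication), -0.11 (mitosis) and -0.0152 (B stage). In that setting the slope of Tet1 with B stage was -0.0621 and that of Tet3 with mitosis -0.24. Signs also turned with T cell, macrophage and neutrophil covariates for Dnmt3b with B stage (-0.00965), Tet1 (0.15) and Tet2 (0.41) with replication, and Tet2 (0.16) and Tet3 (-0.13) with mitosis. With the B stage covariate they turned for Tet2 with replication (0.0919) and mitosis (0.0908) and Tet3 with mitosis (-0.10). Median centring gave Dnmt3b 0.0558 and Tet1 0.0088 with mitosis and Tet1 0.0450 with replication, array weights gave Tet1 0.15 with mitosis and 0.0100 with replication, the median over the list gave Tet1 0.0370 with mitosis, and quantile normalization gave Tet3 0.0697 with replication. Without KO tumour 6 and WT tumour 3, Tet1 had 0.23 with mitosis and 0.59 with replication and Tet2 0.11 with replication. With 1 tumour left out, the ranges that crossed 0 were -0.145 to 0.0796 (Dnmt3b), -0.20 to 0.18 (Tet1), -0.29 to 0.12 (Tet2) and -0.0519 to 0.26 (Tet3) with mitosis, and -0.28 to 0.44 (Tet1) and -0.48 to 0.34 (Tet2) with replication. The cause of these turns was not tested. Tet1, Tet2 and Dnmt3b lie near the median probe set level, which limits their comparisons.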
